A study of Mus musculus with 8 samples.

Results

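The genes described here switch the translation factor eIF2 off and on: the kinases Eif2ak1, Eif2ak2, Eif2ak3 and Eif2ak4, the kinase inhibitor Impact, the phosphatase subunits Ppp1r15a and Ppp1r15b, the kinase substrate Eif2s1, and Eif2b2 and Eif2b5 of the exchange factor eIF2B. The 10 genes were listed by name, and every probe carrying the symbol, a synonym or the Entrez number was taken. This gave 11 probes of 9 genes among 25697 probes and 16593 named genes in all. No probe matched Eif2s1, which was not analysed here. A probe counted as detected on an array where its deposited detection p was under 0.05, and 4 or more of the 8 arrays had to detect it for it to be tested. Of the 11 probes, 8 (6 genes) were tested. The other 3, of Eif2ak3, Eif2ak4 and Ppp1r15b, did not pass that filter.

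Hearts of 2-month-old mice on the C57BL/6J background were compared, 1 Illumina bead array per heart. In 4 transgenic mice (Taz knockdown) doxycycline switched on a short hairpin RNA against Taz, which encodes the cardiolipin-remodelling enzyme tafazzin, as a model of Barth syndrome. The 4 controls were wild-type littermates, and all 8 mice received doxycycline at 625 mg/kg of diet. The promoter that drives the hairpin, the sex of the mice and the array slides are not given in the labels, so a slide or sex effect was not tested. The labels give each array a mouse number of its own.

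eIF2 brings the initiator tRNA to the ribosome, and eIF2B recharges it with GTP after each round. When a kinase phosphorylates the alpha subunit, eIF2 instead blocks eIF2B, general protein synthesis drops, and a few messages with upstream reading frames, Atf4 among them, are translated better. Protein phosphatase 1, guided by the product of Ppp1r15a or Ppp1r15b, removes the phosphate. The heart is a tissue in which this integrated stress response is known to follow mitochondrial defects. The arrays measured transcripts, not phosphorylation or enzyme activity.

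None of the 8 tested probes passed the threshold, a Benjamini-Hochberg adjusted p of 0.05 in limma over all 9397 tested probes (5 positive and 3 negative differences). Over all tested probes 6.58% passed. At an unadjusted p under 0.05, 1 of the 8 was called, where 20.8% of all tested probes were. That probe was the one for Ppp1r15a, which lay 1.42-fold higher in the knockdown hearts and had an adjusted p of 0.0514, and it was the member probe whose groups did not overlap. Over all tested probes 14.6% did not overlap. The median size of the log2 difference was 0.07 over the 8 member probes and 0.15 over all tested probes. These medians are not matched for brightness. Each of the 8 member probes was detected on all 8 arrays, where the filter asked for 4, and 3 of them read Eif2b5.

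Taz itself checked the labels: its brighter probe (ILMN_2978525) gave deposited signals of 477 to 639 in wild-type and 53.3 to 69.9 in knockdown hearts, a log2 difference of -2.88 ± 0.117 (SE, n = 4 per group, limma adjusted p = 1.108e-07). Of 6 cardiac muscle markers 4 were tested, and their summed deposited signal was 80327 to 96321 in wild-type and 82532 to 102651 in knockdown hearts. Arrays detected 8935 to 10183 probes each, with the fewest on wild-type heart 3 and knockdown heart 4 (9027). Correlations of log2 intensities were 0.971 to 0.990 for all pairs of arrays.

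**Figure D1:**
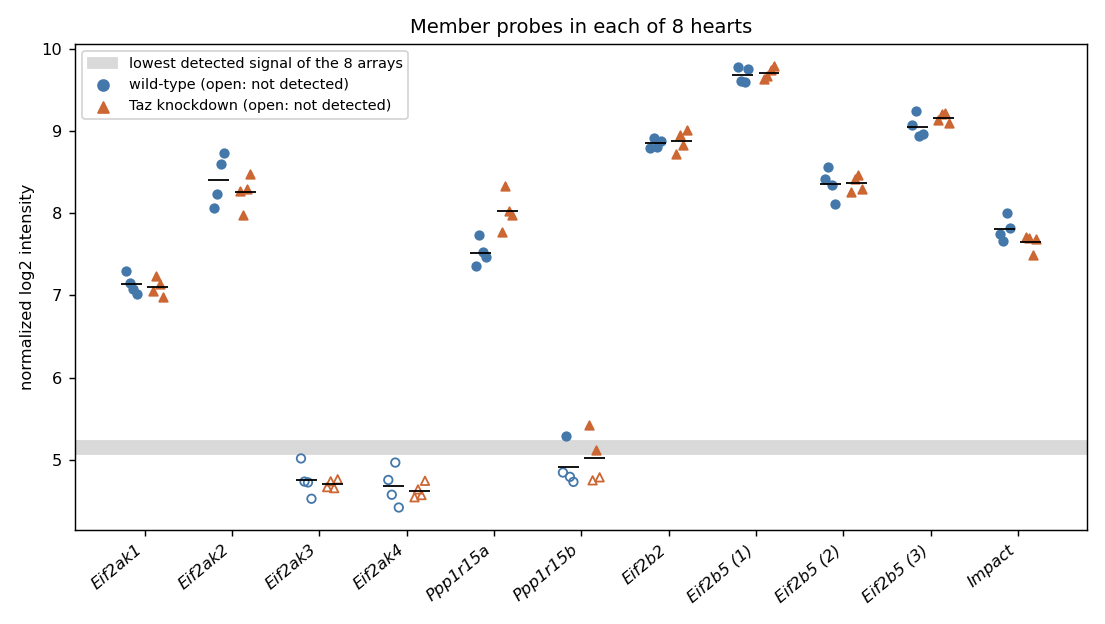
Normalized log2 intensity (vertical axis) of the 11 member probes in each heart; circles are wild-type and triangles knockdown hearts, open symbols are not detected, bars are group means (n = 4) and the grey band spans the lowest detected signals, 5.07 to 5.23. Eif2ak3 and Eif2ak4 lie below the band in every heart, Ppp1r15b straddles it, and Ppp1r15a is the probe whose groups separate. Eif2b5 (1), (2) and (3) are ILMN_2602140, ILMN_2715215 and ILMN_2930067.

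Ppp1r15a encodes GADD34, the inducible subunit that steers protein phosphatase 1 to eIF2 alpha and so closes the feedback loop of the response. The gene lies on chromosome 7 (GRCm38.p6, 45522917 to 45526268, minus strand). Its promoter is shown because it is the member that came closest to a change and the one whose window held a cyclic AMP response element, the palindrome that CREB and ATF family proteins can bind. The 250 bases before the RefSeq start (GRCm38.p6, chr7:45526269-45526518, minus strand, 5′ to 3′) are printed with that element, at positions -12 to -5 from the start, in capitals.
Ppp1r15a: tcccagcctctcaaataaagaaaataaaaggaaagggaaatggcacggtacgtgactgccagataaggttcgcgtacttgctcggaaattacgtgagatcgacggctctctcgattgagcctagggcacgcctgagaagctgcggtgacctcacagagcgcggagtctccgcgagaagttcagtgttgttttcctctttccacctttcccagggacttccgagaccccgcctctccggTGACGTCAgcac

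RefSeq windows were at hand for 8 of the 10 genes (9 windows), and 4 motifs were searched on both strands of the 250 bases. The cyclic AMP response element (TGACGTCA) is held by 1.55% of all 32851 windows and, among these genes, by Ppp1r15a. The C/EBP-ATF element (TGATGNAA, in 3.45% of windows) and the ER stress element (CCAAT, any 9 bases, CCACG, in 0.113%) had no match in any window of these genes. The core of the interferon-stimulated element (GAAA, any 2 bases, GAAA, in 2.98%) matched in Ppp1r15a at positions -220 to -211 and in Eif2s1 at -212 to -203. None of these matches overlaps another. A match describes letters and is not a measured binding site.

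The probe of Ppp1r15a (ILMN_2722938) gave deposited signals of 159, 208, 134 and 164 in wild-type hearts 1 to 4. In knockdown hearts 1 to 4 it gave 249, 312, 242 and 197. On this scale knockdown heart 4 lay below wild-type heart 2, so the raw groups overlap. After normalization wild-type hearts stood at log2 7.36, 7.74, 7.53 and 7.46 and knockdown hearts at 7.77, 8.33, 8.03 and 7.98. These groups do not overlap, though the highest wild-type heart lies just under the lowest knockdown heart. The means were 7.52 ± 0.160 and 8.03 ± 0.231 (SD, n = 4 each).

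The fitted difference was 0.50 ± 0.136 (SE) on the log2 scale, a 1.42-fold ratio with a 95% interval of 1.15 to 1.75 (limma, unadjusted p = 0.00342, adjusted p = 0.0514). Its p-value ranked 624 of 9397, where 618 probes passed. The exact two-sided permutation p over 70 assignments of the hearts was 0.0286, the smallest that they can give. The difference was positive under all 19 alternative settings, between 0.40 and 0.59, and passed the threshold under 7 of them (adjusted p of 0.0162 to 0.0498) and not under the other 12 (up to 0.296). Leaving out wild-type heart 2 or knockdown heart 1 moved it past the threshold (adjusted p = 0.0498 and 0.0397), and without knockdown heart 2 the difference was 0.40 (adjusted p = 0.128).

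**Figure D2:**
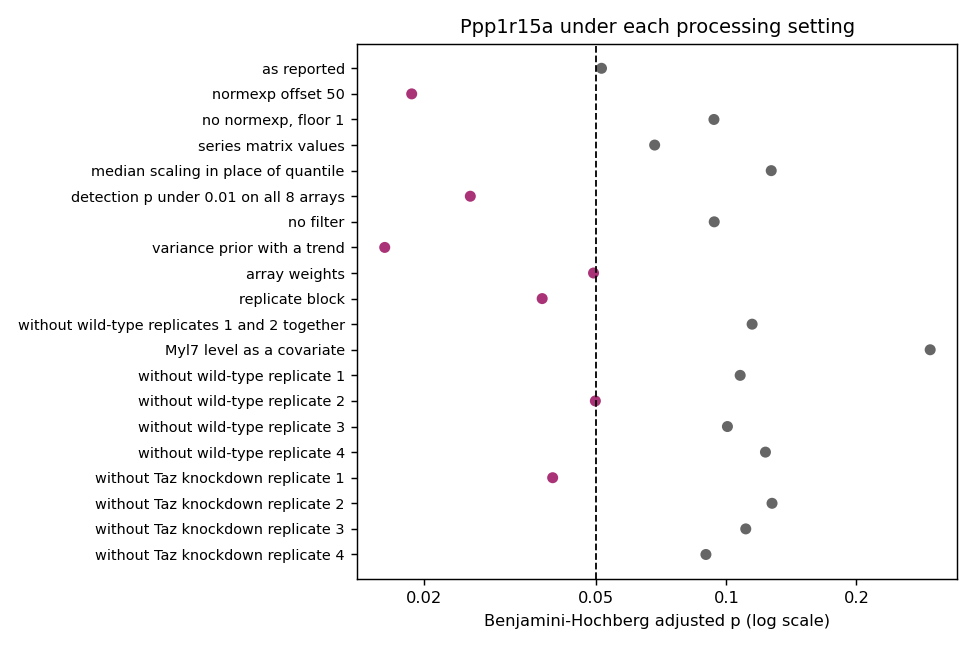
Benjamini-Hochberg adjusted p of Ppp1r15a (horizontal log axis) as reported and under each of the 19 alternatives (rows); the dashed line is the threshold of 0.05 and purple points passed it. The value as reported, 0.0514, sits just right of the line, 7 alternatives lie left of it and the Myl7 covariate gives the highest value, 0.296.

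Ppp1r15b encodes CReP, the subunit made without stress, and lies on chromosome 1. Its probe (ILMN_2705604) was detected in 1 of 4 wild-type and 2 of 4 knockdown hearts. Deposited signals were 7.61, 24.1, 6.27 and 3.85 in wild-type hearts 1 to 4 and 33.1, 4.77, 16.8 and 5.70 in knockdown hearts 1 to 4. The detected hearts were spread over both groups, and the levels lay at or near background.

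The log2 intensity of Ppp1r15a minus that of Ppp1r15b was 2.61 ± 0.147 in wild-type and 3.01 ± 0.520 in knockdown hearts (SD, n = 4 each), a difference of 0.40 (exact two-sided permutation p = 0.171). A difference in the response of the 2 subunits was thus not shown. Because the Ppp1r15b probe was not detected in 5 of the 8 hearts, this comparison mostly sets Ppp1r15a against background. Without knockdown heart 1, in which the Ppp1r15b signal was highest, the difference was 0.62. Its exact permutation p was 0.0286, the smallest that 35 assignments can give. Leaving out any other single heart gave an exact permutation p of 0.257 to 0.457. Without the normexp background correction the difference was 0.15 (exact permutation p = 0.886).

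Eif2ak1 encodes HRI, the kinase known for sensing haem shortage and, in human cells, for receiving a mitochondrial stress signal through DELE1. Its probe (ILMN_2709397) gave deposited signals of 152, 132, 93.8 and 116 in wild-type and 146, 138, 124 and 91.2 in knockdown hearts 1 to 4. The groups covered nearly the same range. The log2 difference was -0.03 ± 0.107 (SE), with a 95% interval of 0.831 to 1.15 for the ratio of knockdown to wild type (limma adjusted p = 0.909).

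Eif2ak2 encodes PKR, which is activated by double-stranded RNA and whose gene is known to be induced by interferon. Its probe (ILMN_1250410) gave deposited signals of 273, 299, 296 and 420.0 in wild-type and 359, 243, 293 and 288 in knockdown hearts 1 to 4. Wild-type heart 4 was highest and knockdown heart 2 lowest. The log2 difference was -0.15 ± 0.164 (SE), with an interval of 0.702 to 1.16 for the ratio (limma adjusted p = 0.669).

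Within the wild-type group the normalized log2 level of Eif2ak2 was 8.07 and 8.23 in hearts 1 and 2 and 8.60 and 8.73 in hearts 3 and 4, a spread (SD 0.311, n = 4) wider than that of any other tested member in wild-type hearts. Without wild-type hearts 1 and 2, left out as an alternative because their mouse numbers lie apart, the difference was -0.41 (limma adjusted p = 0.186). The mean centred log2 level of 10 tested interferon response genes was 0.21, -0.05, -0.17 and -0.07 in wild-type hearts 1 to 4. In knockdown hearts 1 to 4 it was 0.13, -0.01, 0.13 and -0.17. From its own mean Eif2ak2 stood at -0.27, -0.10, 0.27 and 0.40 in the same wild-type hearts. In the knockdown hearts Eif2ak2 stood at -0.06, -0.35, -0.03 and 0.15. None of those 10 genes passed the test (median log2 difference 0.0040).

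Eif2ak3 encodes PERK, the kinase of the endoplasmic reticulum membrane that is activated by unfolded protein. Its probe (ILMN_1215644) was detected on 0 of 8 arrays, with deposited signals of -6.32 to 13.9 and detection p of 0.114 to 0.744. Eif2ak4 encodes GCN2, which is activated by uncharged tRNA. Its probe (ILMN_2623938) was likewise detected on 0 of 8 arrays, with signals of -13.9 to 12.2 and detection p of 0.165 to 0.905. The lowest detected signal of an array was 15.8 to 19.3, so these probes give only an upper limit in both groups, and no fold is given for either kinase.

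A probe below background does not show that the message was absent. The probe of Hspa5, which encodes the abundant chaperone BiP, was detected on 1 of 8 arrays with deposited signals of -4.85 to 20.4. Probe sequences were not used here, so the part of each message that a probe reads was not examined.

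Impact encodes a protein that binds GCN1 and thereby restrains GCN2. The gene lies on chromosome 18. Its probe (ILMN_2760977) gave deposited signals of 213, 197, 194 and 218 in wild-type and 238, 196, 163 and 158 in knockdown hearts 1 to 4. On this scale knockdown hearts 3 and 4 lay below every wild-type heart and knockdown heart 1 above them all. After normalization knockdown heart 4 (log2 7.69) lay above wild-type heart 2 (7.67). Knockdown heart 1 (7.71) then lay below wild-type hearts 1, 3 and 4 (7.75, 8.01 and 7.82). The log2 difference was -0.16 ± 0.111 (SE), a ratio of 0.893 with a 95% interval of 0.755 to 1.06 (limma adjusted p = 0.453).

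Eif2b2 encodes the beta subunit of eIF2B and Eif2b5 the epsilon subunit, which carries the exchange activity. Eif2b2 lies on chromosome 12 and Eif2b5 on chromosome 16. The Eif2b2 probe (ILMN_2762301) gave deposited signals of 453, 496, 346 and 469 in wild-type and 494, 494, 430.0 and 425 in knockdown hearts 1 to 4. After normalization all 8 hearts stood between log2 8.72 and 9.01, and the difference was 0.02 ± 0.103 (SE), a ratio with a 95% interval of 0.869 to 1.19 (limma adjusted p = 0.924).

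Eif2b5 was read by 3 probes, which share a gene and are not replicates. ILMN_2602140 gave deposited signals of 904, 813, 618 and 867 in wild-type and 956, 835, 823 and 738 in knockdown hearts 1 to 4. ILMN_2715215 gave 348, 383, 245 and 269 in wild-type and 355, 335, 337 and 254 in knockdown hearts. ILMN_2930067 gave 553, 625, 382 and 495 in wild-type and 659.7, 586, 568 and 449.9 in knockdown hearts.

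By all 3 probes and that of Eif2b2, wild-type heart 3 and knockdown heart 4 had the lowest deposited signal of their groups. These are the arrays with the fewest detected probes. After normalization knockdown heart 4 was instead the highest of its group for Eif2b2 (9.01) and ILMN_2602140 (9.80). The log2 differences of the 3 Eif2b5 probes were 0.03, 0.0025 and 0.11, and the widest ends of their 95% intervals allow ratios of 0.837 to 1.26 (limma adjusted p of 0.622 to 0.994).

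**Figure D3:**
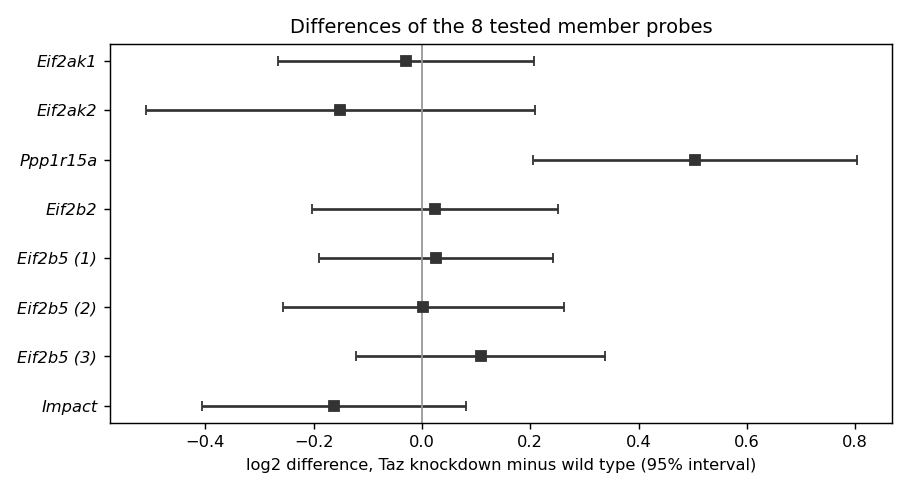
Log2 difference of knockdown minus wild-type hearts (horizontal axis) for the 8 tested member probes, with 95% intervals from limma's moderated spread (n = 4 per group). The interval of Ppp1r15a, 0.20 to 0.80, lies above 0 before adjustment for multiple tests, and the other 7 intervals, between -0.51 and 0.34 at their widest, include 0.

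For the 7 probes other than that of Ppp1r15a the limma adjusted p was 0.453 to 0.994 and the exact permutation p 0.143 to 0.971. Their intervals leave room for a decrease of up to 1.42-fold or an increase of up to 1.26-fold. These values come from whole hearts, in which fewer cells of a type and less RNA per cell cannot be told apart.

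Other genes of the same machinery were taken from lists of partners. Of 6 further genes of eIF2 and eIF2B subunits, 4 were tested and none passed in either direction (background 3.42% higher and 3.16% lower over all tested probes). All 4 differences were positive, with a median of 0.12 against -0.01 over all tested probes. Among them Eif2s2, the beta subunit of eIF2, stood at 0.37 and 0.39 by its 2 probes (limma adjusted p = 0.137 and 0.146) and Eif2b4 at 0.18 (adjusted p = 0.330). By the first Eif2s2 probe and that of Eif2b4 the groups did not overlap, and by the other Eif2s2 probe they did. Eif2b1 stood at 0.06 and 0.34 by its 2 probes (limma adjusted p = 0.781 and 0.205) and Eif2s3x at 0.07, all with overlap. Of 6 tested catalytic subunits and partners of protein phosphatase 1 none passed (median 0.06), with 4 positive and 2 negative differences. They ran from -0.13 for Ppp1r2 (limma adjusted p = 0.699) to 0.43 for Ppp1r8 (adjusted p = 0.0845), both with overlap. Ppp1ca, Ppp1cb and Ppp1cc, the catalytic subunits that Ppp1r15a recruits from, stood at 0.06, 0.06 and 0.14 by their brightest probes. The other 2 probes of Ppp1ca gave 0.28 and 0.25 (limma adjusted p = 0.137 and 0.204), and by the first of these the groups did not overlap.

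Among 6 tested partners of the kinases other than Impact, Dele1 fell and 5 did not pass (median -0.03). Dele1 encodes the mitochondrial protein that, in human cells, is cleaved by OMA1 and then activates HRI. Its probe (ILMN_1213681) gave deposited signals of 770.2, 794, 647 and 814 in wild-type and 600.5, 627, 551 and 506 in knockdown hearts 1 to 4, and all knockdown hearts lay below all wild-type hearts. The decrease was 1.35-fold with a 95% interval of 1.16 to 1.58 (limma adjusted p = 0.0303). The call was lost under 9 of 19 alternatives, among them leaving out wild-type heart 2, 3 or 4 or knockdown heart 1 or 3 (adjusted p of 0.0598 to 0.0833), while the difference stayed between -0.49 and -0.37. Oma1, the protease, stood at -0.37 ± 0.171 (SE, limma adjusted p = 0.253), and Dnajc3, an inhibitor of PERK and PKR, at -0.0017.

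Among 5 tested factors of start site choice Eif5 rose and 4 did not pass. Eif5 is the GTPase-activating protein of eIF2, so it acts in the same cycle as eIF2B. Its brightest probe (ILMN_3151345) gave deposited signals of 1458, 1351, 1036 and 1354 in wild-type and 2202, 1901, 1711 and 1526 in knockdown hearts 1 to 4, with no overlap. The increase was 1.37-fold with a 95% interval of 1.19 to 1.58 (limma adjusted p = 0.0144), and the other probes gave log2 differences of 0.57 and 0.79 (adjusted p = 0.0127 and 0.00345). Of 19 alternatives 4 ended the call of the brightest probe, among them median scaling (adjusted p = 0.176) and the Myl7 covariate (0.229).

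Atf4 encodes the transcription factor whose translation rises when eIF2 is phosphorylated. On the list of Atf4, its partners and its known targets, of 16 tested genes 13 rose, none fell and 3 did not pass, with a median log2 difference of 1.94. The bounds of the 2 genes undetected in wild-type hearts, 3.00 and 2.94, lie above this median, so they could not change it. The 2 middle genes, Psat1 and Phgdh, were detected in 1 and 2 of 4 wild-type hearts, so the median itself leans on values near background. This list was drawn up with its rise in these hearts already known. Of the 13 genes, 7 were not detected in every wild-type heart and met the detection filter only with the knockdown hearts. Among the 9 tested genes detected in all 4 wild-type hearts, 6 rose. When detection with p under 0.01 on all 8 arrays was required, 9 of its genes were tested and 6 rose. Mthfd2, an enzyme of mitochondrial folate metabolism, and Asns, which makes asparagine, were detected in 0 of 4 wild-type and 4 of 4 knockdown hearts. They entered the test only through the group where they are high, so bounds are given without a p-value. These were at least 7.68-fold higher for Mthfd2 and at least 8.01-fold higher for Asns. Slc7a5, an amino acid transporter detected in all 8 hearts, rose 12.6-fold (limma adjusted p = 1.160e-07).

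**Figure D4:**
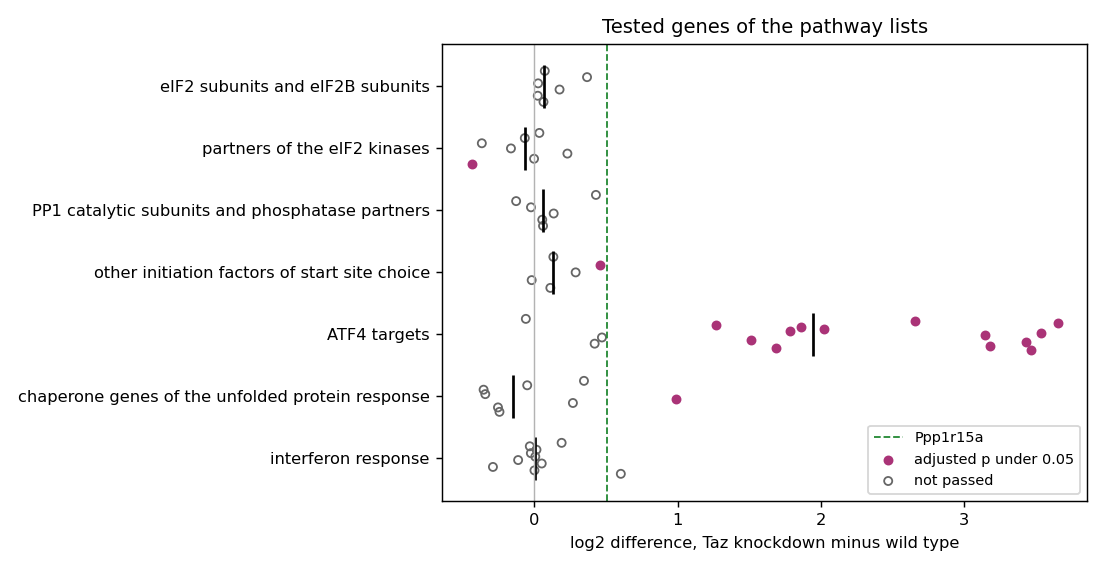
Log2 difference of knockdown minus wild type (horizontal axis) for each tested gene of 7 pathway lists, 1 probe per gene; filled points passed an adjusted p of 0.05, bars are list medians and the dashed line is Ppp1r15a (0.50). The first list includes Eif2b2 and Eif2b5 and the second Impact. Points of the eIF2, eIF2B and phosphatase lists lie between -0.13 and 0.43, and 13 points of the ATF4 list lie at 1.27 or higher.

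Ppp1r15a is itself known as a target of ATF4 and of CHOP, the product of Ddit3. Its values are therefore given beside those of 4 regulators of the same response, which were picked after their rise was seen, so the comparison is a description. The log2 difference exceeded that of Ppp1r15a by 1.01 for Ddit3 (brighter probe), 1.18 for Atf4 and 2.67 for Atf5, all detected in all 8 hearts. The dimmer Ddit3 probe (ILMN_2927373), with a wild-type mean of log2 4.99 near background, gave a smaller difference of 0.96 (limma adjusted p = 0.00774). Trib3 was detected in 1 of 4 wild-type and 4 of 4 knockdown hearts, so its wild-type level lies at background and no such value is given for it.

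**Figure D5:**
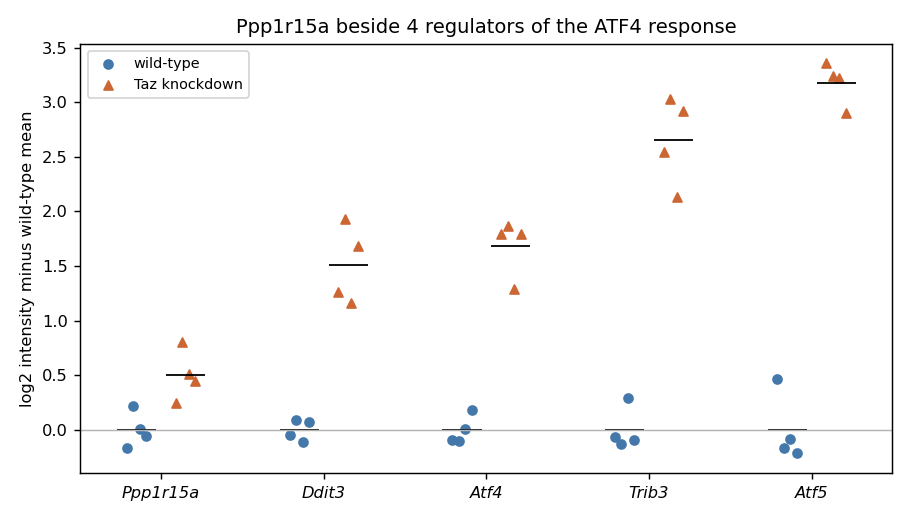
Log2 intensity minus the wild-type mean of the same probe (vertical axis) for Ppp1r15a and 4 regulators in each heart; circles are wild-type and triangles knockdown hearts and bars are group means (n = 4). The mean of the knockdown hearts is 0.50 for Ppp1r15a, 1.51 for Ddit3, 1.68 for Atf4, 2.66 for Trib3, whose wild-type level lies at background, and 3.18 for Atf5.

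Of 8 tested chaperones and other genes of the unfolded protein response, in which PERK takes part, Herpud1 rose and 7 did not pass (median -0.15). Herpud1, which serves the disposal of misfolded proteins, rose 1.99-fold (95% interval 1.65 to 2.38, limma adjusted p = 5.744e-04; 0.0721 with Myl7 as a covariate). The chaperones Hsp90b1, Pdia4 and Calr stood at -0.34, -0.35 and -0.24 (adjusted p of 0.130 to 0.290). Xbp1, a transcription factor of the response, stood at 0.35 with groups that did not overlap (adjusted p = 0.0618), and the chaperone Dnajb9 at 0.27 (adjusted p = 0.324). The other 2, Creld2 and Sel1l, stood at -0.25 and -0.05. The genes whose normalized profile over the 8 arrays, centred on its mean, was nearest to that of Ppp1r15a were Tspan17, Lrrc28 and Vars, with root mean square differences of 0.0856, 0.0933 and 0.1001 on the log2 scale. They were named although Ppp1r15a did not pass, a choice made after its value was seen.

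Atrial markers were lower on average in knockdown hearts, but by their mean the groups overlapped. The mean centred log2 level of the 5 tested genes was -0.20 in wild-type heart 3 and -0.13 in knockdown heart 4. All 5 tested atrial genes of 6 had negative differences (-0.80 to -0.29, none passed), and their summed deposited signal was 31158 to 66788 in wild-type and 28164 to 40903 in knockdown hearts. Myl7, an atrial myosin light chain, stood at -0.71 (limma adjusted p = 0.0526) with groups that did not overlap. As a covariate it therefore shares the group difference and cannot set atrial content apart from the knockdown. The same holds for the other values given with this covariate. With its log2 level in the fit, the difference of Ppp1r15a was 0.59 (adjusted p = 0.296), that of Dele1 -0.37 (adjusted p = 0.406) and that of Eif2ak2 0.01. Of 2 tested leukocyte markers Lyz2 fell, with a log2 difference of -0.48 (limma adjusted p = 0.0450), while Ptprc, Itgam, Cd3e and Cd79a did not pass the detection filter. Of 3 tested smooth muscle markers Acta2 rose by 0.85 (adjusted p = 0.0125), while Tagln and Myh11 stood at -0.42 and -0.33 (adjusted p = 0.120 and 0.306). None of 3 red cell genes passed, with log2 differences of 0.94 for Slc4a1, 0.59 for Alas2 and 0.09 for Hba-a1 (limma adjusted p = 0.0583, 0.189 and 0.759). Of the 6 skeletal muscle markers 1 was tested and the other 5 were not detected on enough arrays. The part of atrial and other cells in the member values was not tested.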

How the data were processed

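RNA of 8 mouse hearts, 4 per group, was copied into biotinylated RNA with Ambion's kit for bead arrays, per the labels' protocols. The main values are linear intensity values that the authors left non-normalized, per the file headers. Between 28.2% and 31.5% of them lie below 0 on an array, as after background subtraction. Each has a detection p-value, also deposited. A deposited table of intensity values with equal quantiles on all arrays, from its values already normalized, served as an alternative. Scanner software and slides are not named in those sources.

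Background was corrected by normexp, fitted with the detection p-values, and followed by an offset of 16, quantile normalization and log2 (neqc of limma 3.58.1, R 4.3.3). The offset makes folds of dim probes smaller. All 9397 probes detected (p under 0.05) on 4 or more arrays were fitted together with lmFit and eBayes, two-sided, with Benjamini-Hochberg adjustment. For a probe undetected throughout a group the fold is a bound, taken per array against its lowest detected signal or the probe's value, whichever was higher. The test was tried on simulated data.

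Groups and replicate numbers came from the descriptions. Deviations of same-numbered hearts correlated at 0.165, 0.0053, -0.0932 and -0.0053. These values showed no clear pairing by number, though they cannot exclude one, and the numbers were taken as names. Genes were named through the platform annotation, with the RefSeq symbol where the Entrez number matched (23962 of all 25697 probes). Of all probes 23978 had 1 gene name and 1719 had none. Lists used 1 probe per gene, the highest mean. Promoter windows are RefSeq's (GRCm38.p6).

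Members and lists were chosen with earlier results of these data known. Named genes are all members, up to 4 per list that passed, with the smallest p, the 3 nearest profiles of a member that passed, and Taz; others were chosen after their values were seen. Alternatives were the offset, no normexp, the deposited normalized values, median scaling, the detection filter, the variance prior, array weights, a replicate block, the Myl7 level, and leaving out hearts.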

Additional observations from a re-analysis of the deposited data

Results flagged for a closer look

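Of 26 groups of 4 hearts checked (each of the 11 member probes and those of Dele1 and Eif5 in each group), 1 held a heart that stood apart by Dixon's test, where chance gives about 1 in 20. Impact stood at log2 7.49 in knockdown heart 3, and the nearest other knockdown heart at 7.69.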

How the results depend on the processing

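Under 19 alternatives the 8 tested member probes gave 152 values. Of these 130 kept direction and side of the threshold, 7 passed it, all of Ppp1r15a, and 15 changed sign, none of them past the threshold. The count of changed member probes was 1 in place of 0 with an offset of 50, with detection p under 0.01 on all 8 arrays, with a variance prior that follows intensity, with array weights and with the replicate block; leaving out single hearts gave 0 to 1. Over all probes, 321 higher and 297 lower, the counts became 210 and 191 without normexp, 174 and 77 with median scaling, 209 and 165 without wild-type hearts 1 and 2, and 73 and 26 with Myl7 as a covariate. Myl7 itself differed between the groups without overlap, so calls lost with this covariate cannot be put down to atrial content. The lower probes numbered 451 with an offset of 50 and 471 with the variance trend. Without single hearts the higher probes numbered 197 (knockdown heart 2) to 264 and the lower 188 (knockdown heart 3) to 261; the lower were 189 without wild-type heart 4 and 191 without knockdown heart 1 or 2. The replicate block gave 215 higher and 184 lower, and a limma adjusted p of 0.0375 for Ppp1r15a (0.50) and 0.0668 for Dele1. The number was taken as a name here, so a call that it moved is no sign of a pairing. Ppp1r15a minus Ppp1r15b ran from 0.20 to 0.62 without single hearts and was lowest, at 0.15 (exact permutation p = 0.886), without normexp; it was positive under every alternative run; with 1 probe per gene, averaging probes could not be run. Values near 0 that changed sign were Eif2ak1 at 0.0302 with median scaling and 0.0601 without wild-type hearts 1 and 2, Eif2ak2 at 0.0113 and Eif2b5 (ILMN_2715215) at -0.14 with the Myl7 covariate, and Eif2b2 at -0.0032 with array weights. Without single hearts Eif2ak1 ran from -0.0746 to 0.0253, Eif2b2 from -0.0209 to 0.0765, ILMN_2602140 from -0.0018 to 0.0585 and ILMN_2715215 from -0.0790 to 0.0722. The causes were not tested. The number of arrays limits the precision, and signals at background leave Eif2ak3, Eif2ak4 and Ppp1r15b without a usable value.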
